A study of Piaractus mesopotamicus with 9 samples.

Results

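The miR-29 family of pacu (Piaractus mesopotamicus) myotubes was described across 3 nutritional conditions. Members were the reference entries of the deposited normalised miRNA table whose name, without its species prefix, was miR-29 with or without a letter. The rule took 39 of 1769 entries, from all 13 reference species. One pair held the same values in all 9 libraries and was counted once, which left 38 distinct count profiles of 953. A further 13 miR-29 entries of the raw table fell under the mean of 10 counts that the table required, 10 of them without any count.

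miR-29 is a vertebrate microRNA family, and a microRNA is a short RNA that pairs with messenger RNAs and lowers their translation or stability. Its paralogous genes, named a, b, c and in some fishes d, give mature strands from the 3′ arm (3p) that share a seed, the stretch used for target pairing, and strands from the 5′ arm (5p) that are usually degraded. In mammals miR-29 is best known for repressing collagens and other matrix genes. In mouse muscle cells it has been tied both to differentiation and, for miR-29b, to atrophy.

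Small RNA was sequenced from primary cultures of juvenile pacu fast-twitch muscle, each made from several fish and grown in serum-containing medium to day 8, when myotubes had formed. All 9 samples were then deprived of amino acids in a balanced salt medium with vitamins and glucose. The CTR group (n = 3) stayed in it for 36 h. The AA group (n = 3) had 12 h of deprivation and 24 h in DMEM, a medium with amino acids. Its base thus differed from the balanced salt medium of the other groups, which the paper calls a minor difference. Effects of the base and of the amino acids cannot be told apart. The IGF1 group (n = 3) had 12 h of deprivation and 24 h in the amino acid-free medium with recombinant gilthead sea bream IGF1, the insulin-like growth factor. The sample characteristics give 36 h for CTR and 12 h for AA and IGF1, the same hours as the deprivation in the protocol. They give no separate time for the supplement, so its 24 h rests on the protocol. The fish carry no engineered allele. The labels do not say which culture a library came from, so p-values measure the spread between these libraries.

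The zebrafish entries alone held from 7627252 to 12908097 counts per library. The muscle markers (miR-206, miR-499, miR-1 and miR-133) were present in every library, and their share of those counts was 0.0439% to 0.0683% for CTR, 0.194% to 0.276% for AA and 0.0757% to 0.0851% for IGF1. The miR-126 entries, an endothelial marker, summed to 0.0130% to 0.0242%, and the blood, neural, epithelial and liver lists each stayed at or under 0.00218%. The part of these cell markers in the miR-29 values was not tested. In bulk cultures, fewer cells of a type and less miRNA per cell cannot be told apart.

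Entry names begin with the species of the reference sequence: dre for zebrafish, ssa for Atlantic salmon, gmo for Atlantic cod, ipu for channel catfish, ola for medaka, oni for Nile tilapia, ccr for carp, fru and tni for pufferfishes, and abu, nbr, mze and pny for African cichlids. Every library came from pacu, so an entry is a sequence the pacu reads were matched to, not a gene of that species. Several entries held identical or near-identical counts in every library, so the same reads appear to have been counted for each, which was not tested. Merging the miR-29 entries whose counts agreed within 2% or 2 counts in each library left 18 groups, 14 of them with 1 entry.

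The most abundant of the merged groups that held several entries was miR-29a. It joined 11 entries of 11 species, 10 named miR-29a and the salmon entry ssa-miR-29b-3p, and they differed by at most 0.377% in any library. The salmon entry carries the name 29b but the counts of 29a. The group is represented here by dre-miR-29a.

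A second group joined 8 miR-29b entries of 8 species, represented by dre-miR-29b, which differed by at most 1.41%. Another held dre-miR-29b3-3p and the carp and 2 cichlid miR-29b entries, within 0.939%. In each library dre-miR-29b3-3p held between 1.056 and 1.135 times the count of dre-miR-29b, and the correlation of their log2 values over the 9 libraries was 0.996. These correlations describe 9 libraries, in each of which the entries share a depth and may share reads, and none was tested.

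Single letters spanned wide ranges. The 14 miR-29a entries had mean normalised counts from 16.3 to 5222, the 17 miR-29b entries from 15.4 to 6075, the 5 miR-29c entries from 53.7 to 5972 and the 3 miR-29d entries from 135 to 317. A normalised count is the read count divided by 1 size factor per library. Few entries set these ranges for a and b. Most miR-29a entries fell in the group of dre-miR-29a, with a mean of 5220. Most miR-29b entries fell in the groups of dre-miR-29b3-3p and dre-miR-29b, with means of 1542 and 1431. Letter alone still did not fix the level, since the lowest and the highest member of the family were both named miR-29b.

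Among the entries that passed the filter, the ranges of the arms overlapped. The 8 entries named 3p lay between 135 and 5222, the 4 named 5p between 57.6 and 6075, and the other 27 carried no arm in their name. The 5p range rests on 1 high entry, since the others had means of 57.6, 64.0 and 209. Most of the 13 miR-29 entries under the filter were also named 5p, so the ranges leave out many low 5p entries. The leading entry was ssa-miR-29b-2-5p, which is named for the 5′ arm, and the leading 3p entry was gmo-miR-29a-3p. Of the 18 groups, 5 had a mean above 1000, 7 lay from 100 to 1000 and 6 were under 100.

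**Figure D1:**
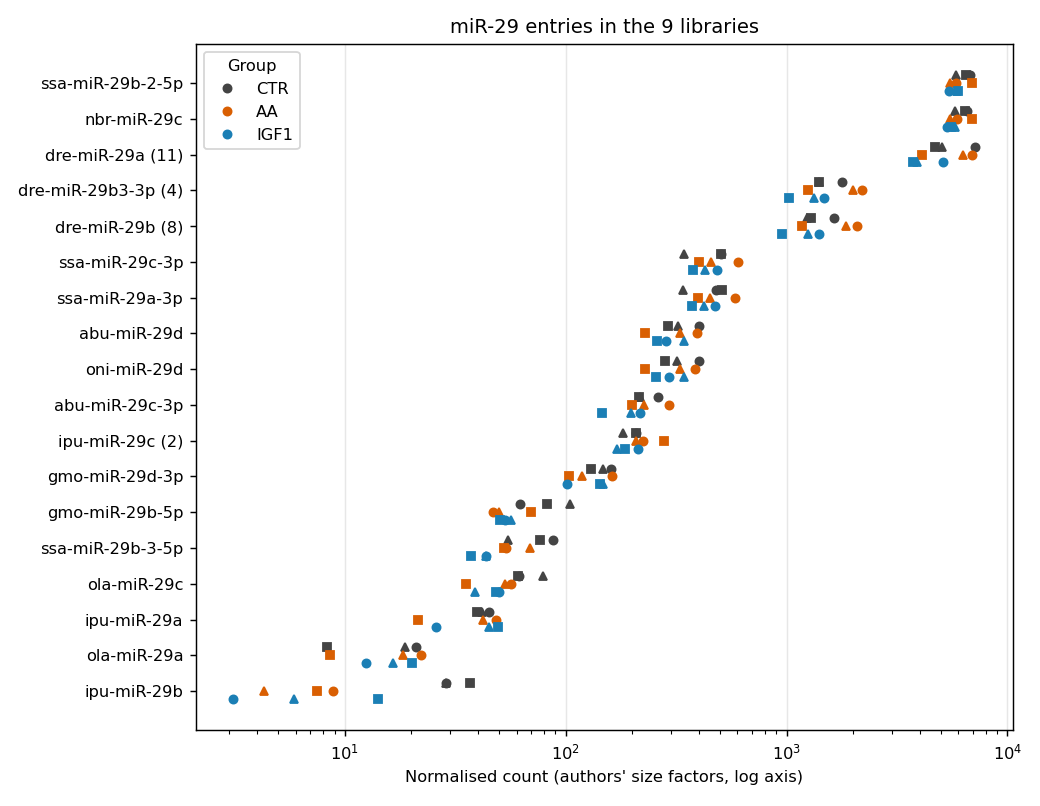
Normalised counts (log axis) of the 18 groups of miR-29 entries in the 9 libraries, 1 point per library, coloured by group of samples, with circles, squares and triangles for replicates 1, 2 and 3. Numbers in brackets give the entries merged. The levels run from 3.12 for ipu-miR-29b in IGF1 replicate 1 to 7165 for dre-miR-29a in CTR replicate 1, and ipu-miR-29b is the group in which the CTR points stand farthest from the others.

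By mean level over all profiles, 5 of the 18 groups ranked near the middle and 13 ranked lower. ssa-miR-29b-2-5p ranked 337 of 953 profiles, nbr-miR-29c 339, the miR-29a profiles 346 to 356 and the miR-29b groups 477 to 494, while the other 13 groups ranked from 603 to 923. The zebrafish entry dre-miR-29a made up 0.0516% ± 0.0129 (SD, n = 3) of all zebrafish-entry reads under CTR, 0.0611% ± 0.0222 under AA and 0.0381% ± 0.0110 under IGF1, and ranked 61 of 373 zebrafish entries. dre-miR-29b3-3p ranked 90 and dre-miR-29b 92.

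The design asks whether AA or IGF1 libraries differed from CTR libraries and from each other. By the protocol both CTR and IGF1 cells spent 36 h without amino acids, since the IGF1 medium held none. AA against IGF1 therefore differs in amino acids, base medium and IGF1 together, and these cannot be told apart. No library was taken at 12 h, when the supplements began. A fall after a supplement and a rise in CTR therefore cannot be told apart. In AA against CTR 1 of the 38 profiles was called (2.63%), and it was lower. A call needed an adjusted p of at most 0.05 in edgeR's quasi-likelihood test, corrected over all 1769 entries, and a log2 fold change of at least 0.55 either way. Over all 953 profiles 0.105% were called lower, which is this same profile, 2.2% were called higher and 2.31% in either direction. An unadjusted p of at most 0.05 in edgeR was reached by 2 of 38 (5.26%) in this comparison, against 6.30% of all profiles. In IGF1 against CTR edgeR called 0 of 38 and DESeq2 1 (all profiles, 0.21% and 1.15%). Under an unadjusted p of 0.05 in edgeR were 4 of 38 (10.53%), each from a group of its own, against 7.66% of all profiles. In AA against IGF1 both tools called 0 of 38 (all profiles, 2.1% and 2.94%). Under an unadjusted p of 0.05 in edgeR were 12, against 9.55% of all profiles, and they came from 2 groups of near-identical entries, those of dre-miR-29b and dre-miR-29b3-3p.

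The profile called was ipu-miR-29b, the channel catfish miR-29b entry that the study took up, and it was the lowest member of the family by mean (rank 923 of 953). Its normalised counts were 28.8, 36.8 and 28.8 in CTR, 8.82, 7.50 and 4.33 in AA, and 3.12, 14.1 and 5.89 in IGF1. Each of the 6 supplemented libraries lay under each of the 3 CTR libraries, and the AA and IGF1 libraries overlapped. The raw counts were 30, 40 and 20 in CTR, 12, 7 and 4 in AA, and 4, 14 and 5 in IGF1. The mean over all libraries was 15.1 raw counts, and the filter required a mean of 10. The normalised means in AA (6.88) and IGF1 (7.70) were under 10, so the entry passed the filter through its CTR counts. An entry as low in every group would not have been tested. In edgeR without the filter, 1 miR-29 profile was still called in AA against CTR.

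The CTR libraries together held 90 reads of it (95% exact Poisson interval 72.4 to 111), AA 23 (14.6 to 34.5) and IGF1 23. These intervals cover counting error only. The mean level was 31.5 ± 4.65 (SD, n = 3) in CTR and 6.88 ± 2.31 in AA, a log2 fold change of -2.14 (SE 0.45, 95% interval -3.13 to -1.16, adjusted p = 0.0221 in edgeR). DESeq2 gave -2.17 with an adjusted p of 0.00424. The edgeR call was lost when any of 4 libraries was left out, namely CTR replicate 1 (adjusted p = 0.0598), CTR replicate 2 (0.0844), AA replicate 2 (0.0734) and AA replicate 3 (0.118), and 5 of the 9 fits without a library made it. The log2 fold change in those 4 fits was -2.18, -2.01, -2.16 and -1.92.

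In IGF1 the mean level of ipu-miR-29b was 7.70 ± 5.70, and the log2 difference from CTR was -2.07 (SE 0.45, 95% interval -3.05 to -1.08). Its adjusted p was 0.0570 in edgeR and did not pass. It passed in DESeq2 (adjusted p = 0.0171) and with the replicate number as a block in edgeR (log2 fold change -2.08, adjusted p = 0.0108), a fit that called 1.57% of all profiles. In edgeR without the block, none of the 9 fits that left out a library called it (adjusted p 0.0542 to 0.2202). The value ran from -1.62 without IGF1 replicate 1 to -2.87 without IGF1 replicate 2, the IGF1 library with the most reads of it.

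Between AA and IGF1 the log2 difference of ipu-miR-29b was -0.07 (SE 0.54, 95% interval -1.27 to 1.12, edgeR adjusted p = 0.947). The interval reaches more than 1 log2 unit each way, so these counts bound a difference between the supplements only loosely.

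The entry was minor beside the miR-29b group of the same letter. Its reads were 1.76%, 2.86% and 2.33% of those of dre-miR-29b in the CTR libraries, 0.423%, 0.635% and 0.232% in AA, and 0.224%, 1.47% and 0.473% in IGF1. The dre-miR-29b counts themselves averaged 1389 ± 219 (SD, n = 3) in CTR and 1712 ± 473 in AA. Against ssa-miR-29b-3p, the most abundant miR-29b entry without a 5p name, the log2 ratio was lower by -2.18 in AA and by -1.80 in IGF1 than in CTR (2 ratios tested, each exact two-sided permutation p = 0.1 over 20 splits, 0.1 after Benjamini-Hochberg adjustment). That is the smallest p that 3 libraries against 3 allow. The entry was taken up because the study reported it as lower in these same libraries, so the ratio is no separate evidence of a difference. With dre-miR-29b as the denominator, an alternative chosen after seeing the data, the ratios were lower by -2.43 and -1.98.

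**Figure D2:**
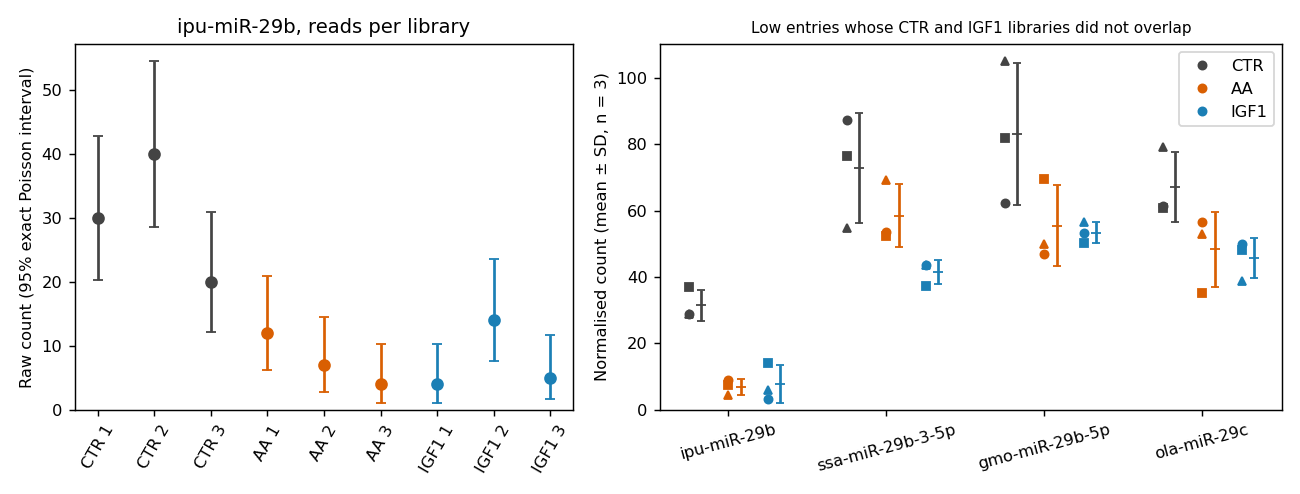
Left, raw counts of ipu-miR-29b in each library with 95% exact Poisson intervals. Right, normalised counts per library (circles, squares and triangles for replicates 1, 2 and 3) with mean ± SD (n = 3) for ipu-miR-29b, ssa-miR-29b-3-5p, gmo-miR-29b-5p and ola-miR-29c, the entries whose CTR and IGF1 libraries did not overlap. The CTR mean of ipu-miR-29b is 31.5 against 6.88 in AA and 7.70 in IGF1.

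Over the 9 libraries the profiles outside the family whose log2 levels correlated best with ipu-miR-29b were ipu-miR-24 (r = 0.755), gmo-miR-30e-3p (0.681) and dre-miR-34c-3p (0.637). Their own log2 differences between AA and CTR were -0.10, -0.21 and -0.30, against -2.14 for ipu-miR-29b, so the likeness was not one of size. They were picked as the highest Pearson correlations outside the family, and none was tested. Within the family, the correlation of ipu-miR-29b with dre-miR-29a was 0.08 and with dre-miR-29b -0.21.

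A further 3 low entries shared the order of CTR over IGF1. ssa-miR-29b-3-5p, a salmon 5′ arm entry, had normalised counts of 87.4, 76.5 and 54.7 in CTR, 53.7, 52.5 and 69.3 in AA, and 43.7, 37.2 and 43.6 in IGF1. The IGF1 libraries lay under all the others, while AA and CTR overlapped. Its log2 difference between IGF1 and CTR was -0.83 (SE 0.24, 95% interval -1.35 to -0.31, edgeR adjusted p = 0.202), and -0.84 with the replicate block (adjusted p = 0.0550). The block fitted to the 953 distinct profiles, an alternative chosen after seeing the data, gave -0.86 with an adjusted p of 0.0420, which passed.

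gmo-miR-29b-5p, the cod 5′ arm entry, had 62.4, 82.0 and 105 in CTR, 47.0, 69.6 and 49.8 in AA, and 53.1, 50.3 and 56.6 in IGF1. All IGF1 libraries lay under all CTR libraries, and AA replicate 2 lay above CTR replicate 1. The log2 differences from CTR were -0.58 in AA (SE 0.24, edgeR adjusted p = 0.390) and -0.64 in IGF1 (SE 0.24, adjusted p = 0.571).

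ola-miR-29c, the medaka miR-29c entry, had 61.5, 60.8 and 79.2 in CTR, 56.6, 35.3 and 53.1 in AA, and 49.9999, 48.3 and 38.9 in IGF1. Here every supplemented library was under every CTR library. The log2 differences were -0.45 in AA (SE 0.24, edgeR adjusted p = 0.656) and -0.54 in IGF1 (SE 0.25, adjusted p = 0.787), and neither passed.

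In all, 2 of the 38 profiles (ipu-miR-29b and ola-miR-29c) had AA libraries wholly under CTR, against 4.62% of all profiles, and 0 were wholly above, against 7.24%. For IGF1 under CTR there were 4, against 3.88% of all profiles, and 0 above, against 6.93%. AA lay wholly above IGF1 in 1, ssa-miR-29b-3-5p, against 5.67%, and under it in 0, against 6.51%.

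The 5′ arm reads at the top of the family lay in a narrow range. ssa-miR-29b-2-5p had normalised counts of 6766, 6522 and 5823 in CTR, 5845, 6925 and 5513 in AA, and 5423, 5954 and 5908 in IGF1. The groups overlapped, with the highest library in AA. The log2 differences were -0.07 for AA against CTR (95% interval -0.32 to 0.19), -0.15 for IGF1 against CTR (-0.41 to 0.10) and 0.09 for AA against IGF1 (-0.17 to 0.34), so each interval lay inside the 0.55 threshold.

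nbr-miR-29c, the entry of a cichlid with no arm in its name, followed it closely. Its counts were 6567, 6427 and 5765 in CTR, 5885, 6920 and 5517 in AA, and 5341, 5555 and 5769 in IGF1, and the highest library was again AA replicate 2. In no library did they differ by more than 6.92%, and their log2 values correlated at 0.966 over the 9 libraries. The profiles outside the family most like ssa-miR-29b-2-5p were dre-miR-221-3p (r = 0.737), pny-miR-101b (0.729) and dre-miR-727-3p (0.697).

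The abundant miR-29a and miR-29b groups had another pattern over the libraries. dre-miR-29a had normalised counts of 7165, 4706 and 5071 in CTR, 6901, 4112 and 6276 in AA, and 5126, 3730 and 3881 in IGF1. Replicate 1 was highest and replicate 2 lowest in every group, and IGF1 was under CTR and under AA in each of the 3 replicate numbers. The correlation of dre-miR-29a with ssa-miR-29b-2-5p was -0.09, and the ratio of ssa-miR-29b-2-5p to dre-miR-29a ran from 0.847 in AA replicate 1 to 1.68 in AA replicate 2.

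The mean of dre-miR-29a was 5647 ± 1327 (SD, n = 3) in CTR, 5763 ± 1464 in AA and 4246 ± 766 in IGF1. Its log2 differences were 0.03 for AA against CTR (SE 0.22, 95% interval -0.46 to 0.52, edgeR adjusted p = 0.978) and -0.42 for IGF1 against CTR (-0.91 to 0.07, adjusted p = 0.926). Neither passed in that fit, and the interval for IGF1 reaches past the 0.55 threshold. With the replicate number as a block the IGF1 value of dre-miR-29a was -0.41 (95% interval -0.64 to -0.17, edgeR adjusted p = 0.0557). Both alternatives with the block chosen after seeing the data, edgeR on distinct profiles (-0.43, adjusted p = 0.0413) and DESeq2 (-0.40, adjusted p = 0.00703), passed on adjusted p but not on the fold threshold.

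dre-miR-29b had 1639, 1291 and 1236 in CTR, 2088, 1180.04 and 1867 in AA, and 1398, 956 and 1246 in IGF1. AA was above IGF1 in each of the 3 replicate numbers, and above CTR in replicates 1 and 3. The correlation with dre-miR-29a was 0.901. The log2 difference was 0.30 for AA against CTR (95% interval -0.18 to 0.79, edgeR adjusted p = 0.775) and -0.22 for IGF1 against CTR (-0.71 to 0.27).

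**Figure D3:**
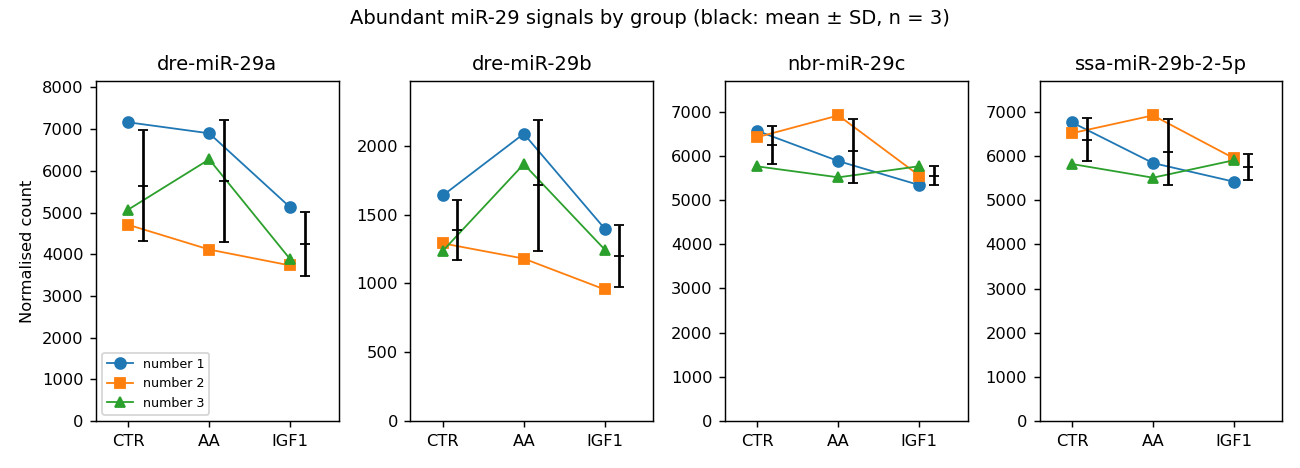
Normalised counts by group for 4 abundant miR-29 entries, with a line for each replicate number and the black bar for mean ± SD (n = 3), on axes from 0. In dre-miR-29a and dre-miR-29b the IGF1 point lies under the AA point for each number, while the lines of nbr-miR-29c and ssa-miR-29b-2-5p cross.

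The difference between the supplements depended on the model in these groups. AA was higher than IGF1 by 0.45 (log2) in dre-miR-29a (SE 0.22, 95% interval -0.04 to 0.94, edgeR adjusted p = 0.435), by 0.53 in dre-miR-29b (0.04 to 1.02, adjusted p = 0.343) and by 0.52 in dre-miR-29b3-3p (0.04 to 1.00, adjusted p = 0.336). None of these passed. Libraries of the same replicate number deviated together over all profiles. Over the 38 miR-29 profiles alone, correlations for the same number (-0.04 to 0.62) and for different numbers (-0.70 to 0.66) overlapped. These 38 form 18 groups of near-identical entries, so each correlation rests on fewer separate values and the overlap says little. With the replicate number as a block in edgeR the differences were 0.43 in dre-miR-29a (95% interval 0.20 to 0.67), 0.51 in dre-miR-29b and 0.50 in dre-miR-29b3-3p, each with an adjusted p of 0.0223.

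With the block, 23 of the 38 profiles had an adjusted p of at most 0.05 in this comparison, all higher in AA, with log2 differences from 0.43 to 0.51. They come from 3 of the 18 groups of near-identical entries, so they amount to at most 3 signals and not 23. These 3 were not separate either. The log2 values of dre-miR-29b correlated at 0.996 with dre-miR-29b3-3p and at 0.901 with dre-miR-29a. Over all profiles 7.35% were higher in AA by that rule, and over all groups of near-identical entries 5.63%. None reached the fold threshold of 0.55, and so 0 were called, against 4.83% of all profiles.

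The signs of the fitted differences over the family follow the same groups. In IGF1 against CTR 37 of 38 profiles were below 0, with a median log2 difference of -0.27 against 0.02 over all profiles. Counted by the groups of near-identical entries, 17 of 18 were below 0 (94.4%), against 45.5% of the 604 distinct ones in the whole table. The median over the 18 groups was -0.20. Some of the 18 still followed one another, so they are not 18 separate signals. The correlation was 0.966 for nbr-miR-29c with ssa-miR-29b-2-5p and 0.996 for dre-miR-29b with dre-miR-29b3-3p. It was 0.995 for ssa-miR-29a-3p with ssa-miR-29c-3p and 0.995 for abu-miR-29d with oni-miR-29d. In AA against IGF1 35 of 38 profiles were above 0, against 40.4% of all profiles, with a median of 0.45 against -0.06. Of the 38, 23 belong to 3 groups of near-identical entries. By group, 15 of 18 were above 0 and the median was 0.13. Below 0 were 16.7% of the 18 groups, against 53.5% of the 604. In AA against CTR 28 of 38 profiles were above 0, against 43.0% of all profiles, but only 8 of 18 groups. Below 0 were 55.6% of the 18 groups, against 49.8% of the 604. The median over profiles was 0.03 against -0.04 over all profiles, and over the 18 groups it was -0.05. AA against CTR and IGF1 against CTR share the CTR libraries, and AA against IGF1 shares libraries with both.

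**Figure D4:**
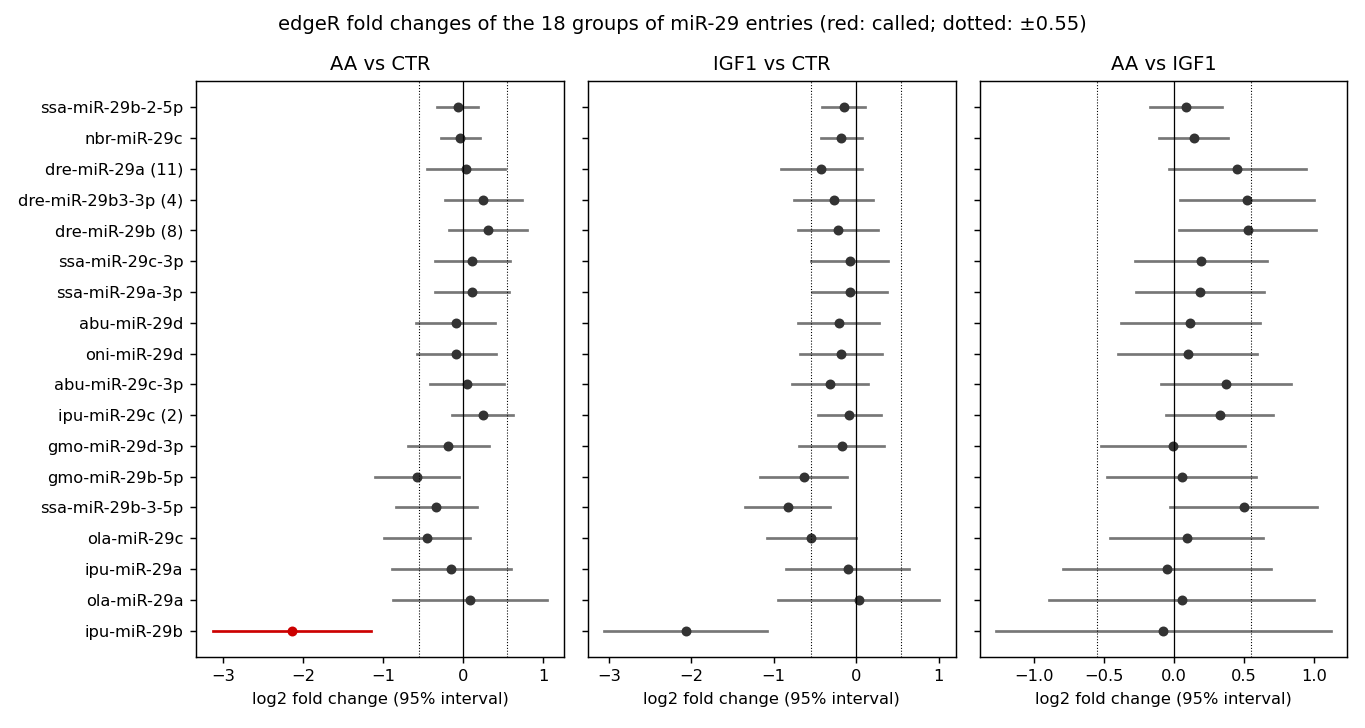
edgeR log2 fold changes with 95% intervals of the 18 groups of miR-29 entries, ordered from the highest to the lowest mean level, in the 3 comparisons. Dotted lines mark the fold threshold of 0.55 and red marks the call. ipu-miR-29b stands at -2.14 in AA and -2.07 in IGF1, while the next lowest value is -0.58 in AA and -0.83 in IGF1.

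The remaining groups lay at middle and low levels. ssa-miR-29c-3p had 505, 506 and 343 in CTR, 606, 402 and 456 in AA, and 487, 376 and 429 in IGF1. Similar counts stood under 2 letters, since ssa-miR-29a-3p held counts within 5.27% of it in every library (r = 0.995). The log2 difference of ssa-miR-29c-3p was 0.11 for AA against CTR (95% interval -0.35 to 0.58) and -0.08 for IGF1 against CTR (-0.55 to 0.39).

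abu-miR-29c-3p, a cichlid entry, had 262, 216 and 217 in CTR, 293, 200.2 and 225 in AA, and 217, 147 and 198 in IGF1. IGF1 was lower than both other groups at each replicate number, by a fitted log2 value of -0.32 from CTR (95% interval -0.78 to 0.15). The test did not pass.

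ipu-miR-29c, a catfish entry whose counts are identical to those of ssa-miR-29a-5p, had 207, 208 and 183 in CTR, 225, 278 and 208 in AA, and 212, 185 and 171 in IGF1. A 29c name and a 29a 5′ arm name thus carried the same counts. AA was above CTR and above IGF1 at each replicate number. The log2 difference from CTR was 0.24 in AA (95% interval -0.14 to 0.63, edgeR adjusted p = 0.775).

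miR-29d is named in some fish genomes, and its entries here did not pass the test. abu-miR-29d had 402, 292 and 324 in CTR, 392, 228 and 330.5 in AA, and 284, 261 and 343 in IGF1, with log2 differences from CTR of -0.09 in AA (95% interval -0.59 to 0.40) and -0.21 in IGF1 (-0.71 to 0.28). oni-miR-29d differed from abu-miR-29d by at most 3.78% in any library. gmo-miR-29d-3p had 161, 131 and 148 in CTR, 162, 104 and 119 in AA, and 102, 144 and 147 in IGF1, with log2 differences of -0.19 and -0.18.

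The miR-29a entries of medaka and catfish held few reads. ola-miR-29a had 21.1, 8.29 and 18.7 in CTR, 22.05, 8.57 and 18.4 in AA, and 12.5, 20.1 and 16.5 in IGF1, and ipu-miR-29a 45.1, 39.6 and 41.7, 48.5, 21.4 and 42.3, and 25.8, 49.3 and 44.8. Their groups overlapped fully. At these counts the 95% intervals of the fitted log2 differences from CTR ran from -0.95 to 1.05 for ola-miR-29a and from -0.90 to 0.64 for ipu-miR-29a, so a change near the fold threshold was not detectable at this depth. The mean of ipu-miR-29a was 37.4 ± 14.2 in AA against 42.2 ± 2.79 in CTR. Its AA replicate 2 (21.4) and IGF1 replicate 1 (25.8) lay under all its CTR libraries. Whether it differed from ipu-miR-29b in its response was not tested.

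Other miRNAs give the setting of these values. Of 15 profiles of the muscle-specific list, 14 were called higher in AA than in CTR (list median 2.04, log2) and 1 in IGF1 (median 0.24). Of 67 profiles of miRNAs tied like miR-29 to extracellular matrix and TGF-beta signalling (miR-21, miR-30, miR-192, miR-199, miR-200 and miR-214), 1 was called higher in AA, a miR-21 profile, and 0 in IGF1 or between AA and IGF1, with medians of -0.10, -0.01 and -0.09. Over all 953 profiles, edgeR called 2.2% higher in AA than in CTR. In either direction it called 0.21% in IGF1 against CTR and 2.1% in AA against IGF1. The profiles of both lists were not merged by near-identical counts, so their numbers are not counts of separate signals. Of the miR-29 family, edgeR and DESeq2 each called 0 profiles higher in any of the 3 comparisons.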

How the data were processed

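Small RNA libraries of 9 samples were analysed, grouped by their labels. Trimmed reads were aligned by the authors with Bowtie2 against mature miRBase sequences from 13 fishes, and raw counts per entry were deposited. The second deposited table, of normalised counts, is a signal equal to each raw count over 1 DESeq2 size factor per library (0.695 to 1.36). Tools named in the submitters' notes include FastQC 0.11.8 and Trimmomatic. For reads that match more than 1 entry, no source used here states the sharing. Sequences were not used.

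The 1769 of 3579 entries that reached a mean of 10 counts were tested in R 4.3.3 with edgeR 4.0.16 (TMM, quasi-likelihood, all 9 libraries, group alone), with Benjamini-Hochberg adjustment. A call required adjusted p ≤ 0.05 and a log2 change of 0.55 or more either way, as in the study's methods. The 95% intervals and standard errors come from the same fit. DESeq2 1.42.0, other factors, filters and units, the replicate block and leaving out each library were alternatives. The script was tested on simulated data. The filter and the counts limit precision for the low entries.

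Deviations of libraries with the same replicate number correlated at 0.287 to 0.566 (9 pairs, 953 profiles), and those with different numbers at -0.484 to 0.151 (18 pairs). Over the 38 miR-29 profiles alone the ranges overlapped (-0.04 to 0.62 and -0.70 to 0.66), but these form only 18 groups of near-identical entries. The paper reports independent cell cultures but does not tie them to the numbers, and the labels say nothing of the numbers. The pairing was therefore read from the data, and blocked values are given where they change a call.

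The entries named are ipu-miR-29b, every profile called by edgeR, DESeq2 or the block, the most abundant profile of each letter and arm, and the 3 profiles with the smallest p in each comparison. Where these are near-identical, 1 entry stands for them. dre-miR-29a, dre-miR-29b and the other entries that stand for the remaining groups of near-identical counts were chosen after their values were seen. The members and lists were chosen with earlier results of these data known.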

Additional observations from a re-analysis of the deposited data

Results flagged for a closer look

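gmo-miR-29c-3p, 1 of the 3 miR-29 entries with reads that fell under the count filter, held 11 reads over the AA libraries (1, 7 and 3) against 1 over the CTR libraries (1, 0 and 0) and 2 over the IGF1 libraries (2, 0 and 0). It was flagged because the filter kept this entry out of the main comparisons. Only the alternative fit without the filter included it, and no test of it is reported here. A library with 0 reads allows up to 3, and most of the AA reads came from AA replicate 2.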

How the results depend on the processing

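The count of called miR-29 profiles in AA against CTR was 1 and became 0 with a minimum mean of 50 counts and with zebrafish entries only, because ipu-miR-29b was then not tested. Leaving out each library in turn gave 0 to 1. In IGF1 against CTR the count was 0 and became 1 with DESeq2, with no composition factors, with the replicate block, and with DESeq2 and the block, and 2 with the block on distinct profiles (ipu-miR-29b and ssa-miR-29b-3-5p). In AA against IGF1 it was 0 in every setting.

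The replicate block changed no other call. For the ratio of ipu-miR-29b to ssa-miR-29b-3p, differences within replicate numbers gave p = 0.25 in an exact sign-flip test, the smallest of 8 arrangements.

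Small differences changed sign. With no composition factors, which moved the median of all profiles by 0.19 in AA against CTR and by 0.23 in AA against IGF1, AA against CTR became 0.12 for abu-miR-29d, 0.034 for gmo-miR-29d-3p, 0.16 for nbr-miR-29c and 0.13 for ssa-miR-29b-2-5p, and AA against IGF1 became 0.26 for gmo-miR-29d-3p and 0.17 for ipu-miR-29b. AA against IGF1 of gmo-miR-29d-3p was also 0.0047 without a filter, 0.035 on distinct profiles, 0.019 with the 2 groups alone, 0.0098 with near-identical entries collapsed and 0.024 with the block on distinct profiles, where ipu-miR-29b was 0.017. Without 1 library, AA against CTR ran from -0.25 to 0.10 for abu-miR-29d, -0.0907 to 0.271 for gmo-miR-29a-3p, -0.0910 to 0.269 for oni-miR-29a, -0.0893 to 0.272 for ssa-miR-29b-3p, -0.12 to 0.034 for nbr-miR-29c, -0.15 to 0.0077 for ssa-miR-29b-2-5p and -0.053 to 0.25 for ssa-miR-29c-3p. IGF1 against CTR of ssa-miR-29c-3p ran from -0.25 to 0.014. AA against IGF1 ran from -0.050 to 0.32 for abu-miR-29d, -0.12 to 0.19 for gmo-miR-29b-5p, -0.20 to 0.13 for gmo-miR-29d-3p, -0.52 to 0.73 for ipu-miR-29b, -0.031 to 0.28 for ola-miR-29c and -0.00019 to 0.16 for ssa-miR-29b-2-5p. The cause was not tested. Counting error alone was 25.7% of the mean raw count of a library for ipu-miR-29b and 1.27% for ssa-miR-29b-2-5p.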
